A study of Mus musculus with 6 samples.

Results

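Ras GTPases and tumour suppressor genes that are often altered in carcinomas and mesotheliomas were followed across mouse cancer cell lines: Hras, Nras, Nf1, Trp53, Cdkn2a, Cdkn2b, Nf2 and Bap1. They were chosen by name, and a gene entered where a probe set of the array, the group of probes that reads a transcript, carried its symbol alone. Of the 8 genes, 6 had such a probe set, 1 each, among the 22180 genes named on the array: Nras (Entrez gene 18176), Nf1 (18015), Cdkn2a (12578), Cdkn2b (12579), Nf2 (18016) and Bap1 (104416). They lie on chromosomes 3 (Nras), 11 (Nf1 and Nf2), 4 (Cdkn2a and Cdkn2b) and 14 (Bap1). No probe set used here was named for Hras or Trp53, so their levels were not analysed here.

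Each line gave 1 array labelled sh Spp1, with the genotype label Spp1 depletion, and 1 labelled sh Ctrl, with the genotype label wild type. LLC is a Lewis lung carcinoma line, AE17 a malignant mesothelioma line and MC38 a colon adenocarcinoma line. All were grown in the same medium with fetal bovine serum, and the hairpin is directed at Spp1, the gene of osteopontin, a secreted glycoprotein. The labels do not say whether the control cells carry a hairpin of their own, nor whether a transfected culture is a clone or a pool. Spp1 itself was not analysed here, as 0 probe sets used here name it alone, so every direction rests on the labels.

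NRAS is a small GTPase that switches on growth signalling through RAF kinases when it binds GTP, and neurofibromin, the product of Nf1, returns Ras proteins to the GDP-bound state. Cdkn2a encodes both the CDK inhibitor INK4A and, in another reading frame, ARF, which protects p53 from the ubiquitin ligase MDM2, while Cdkn2b encodes the related CDK inhibitor INK4B. Merlin, the product of Nf2, activates the Hippo kinases that restrain the coactivators YAP and TAZ, and BAP1 is a deubiquitinase that removes ubiquitin from histone H2A. Loss of CDKN2A, NF2 and BAP1 is characteristic of human mesothelioma.

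The INK4/ARF genes lay closest to background, and their start sites are shown because a single Cdkn2a probe set was read for transcripts that begin at separate promoters. The 250 bases before each RefSeq start site (GRCm38.p6, minus strand, 5′ to 3′) are chr4:89294620-89294869 for the distal Cdkn2a start, which gives the ARF transcript, chr4:89282193-89282442 for the proximal Cdkn2a start, which gives the INK4A transcript, and chr4:89311033-89311282 for Cdkn2b. Capitals mark matches on either strand to the GC box GGGCGG, the cAMP response element TGACGTCA and the E2F sequence TTTCCCGC.
Cdkn2a distal: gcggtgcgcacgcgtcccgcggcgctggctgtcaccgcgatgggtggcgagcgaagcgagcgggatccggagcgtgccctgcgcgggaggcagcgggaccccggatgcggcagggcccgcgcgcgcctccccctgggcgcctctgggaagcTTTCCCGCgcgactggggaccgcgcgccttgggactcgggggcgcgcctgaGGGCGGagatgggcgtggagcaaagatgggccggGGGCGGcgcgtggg
Cdkn2a proximal: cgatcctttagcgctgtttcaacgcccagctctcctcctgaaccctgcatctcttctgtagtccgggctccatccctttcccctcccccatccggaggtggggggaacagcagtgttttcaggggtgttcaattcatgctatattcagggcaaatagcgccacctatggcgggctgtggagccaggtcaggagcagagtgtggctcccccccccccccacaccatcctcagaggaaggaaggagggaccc
Cdkn2b: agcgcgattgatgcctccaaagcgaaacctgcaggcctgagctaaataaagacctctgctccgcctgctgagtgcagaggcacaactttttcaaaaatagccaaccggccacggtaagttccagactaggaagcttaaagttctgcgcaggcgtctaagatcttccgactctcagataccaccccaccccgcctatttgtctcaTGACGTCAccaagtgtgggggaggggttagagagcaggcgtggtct

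The distal Cdkn2a promoter was the richest in CpG, with 40 CpG dinucleotides and a ratio of observed to expected CpG of 1.08, above 97.2% of the 32851 promoter windows of the same length. The proximal Cdkn2a promoter had 7 CpG dinucleotides and a ratio of 0.32, and the Cdkn2b promoter 12 and 0.67. The distal window held 2 GC boxes, found in 32.7% of all windows, and 1 E2F sequence TTTCCCGC, found in 0.895%. The Cdkn2b window held 1 cAMP response element TGACGTCA, found in 1.55%, and no searched sequence was present in the proximal Cdkn2a window. Searches for the TATA box, the CCAAT box, the E-box and a further E2F sequence TTTGGCGC gave no match in any of the 3 windows, while 12.4%, 33.8%, 6.02% and 0.417% of all windows held them. A match describes the letters and is no measurement of binding.

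Levels are log2 intensities after quantile normalization, which gives all arrays 1 distribution. Each probe set hybridizes with its own efficiency, so levels are compared between arrays for a gene and not between genes. The deposited intensities had medians from 26.6 to 64.2, and the 2 arrays of AE17 correlated across probe sets at r = 0.939, below the 0.979 of LLC and the 0.982 of MC38. Each AE17 array correlated with every array of the other lines at least at r = 0.942, above its correlation with its own partner, so the shRNA differences are also given without AE17. Background was judged by 1405 probe sets for olfactory and vomeronasal receptors, genes of sensory neurons. Their 95th percentile was 5.15 to 5.31 on the 6 arrays and their 99th percentile 6.04 to 6.33. The brightness floor for testing, the 30th percentile of all probe sets, was 4.49.

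The labelled cell types were checked with lists of markers. Of 13 lung epithelium markers, Krt8 and Krt18 lay above the 99th percentile of the sensory receptors in LLC. Krt8 did so on every array of all 3 lines, and Napsa on the AE17 sh Ctrl array, while the alveolar genes Nkx2-1, Sftpb and Sftpc lay under it on all arrays. Of 11 intestinal epithelium markers, none lay above it in MC38, where Cdx2 had 5.03 on the sh Spp1 array and 5.18 on the sh Ctrl array. Of 10 mesothelium markers, Pdpn and Gata6 lay above it on the AE17 sh Spp1 array and Pdpn and Bnc1 on the AE17 sh Ctrl array. In MC38 4 of the 10, Msln, Pdpn, Gata6 and Bnc1, lay above it on both arrays, and in LLC 2, Gata6 and Bnc1. The colon line thus had more of these markers above the 99th percentile than the mesothelioma line. At the 95th percentile the order depended on the array. There 9 of the 10 were above on the AE17 sh Spp1 array and 4 on its sh Ctrl array, against 7 and 6 in MC38. The mesothelial antigen gene Msln lay under the 99th percentile in AE17, at 5.34 and 5.13, while MC38 had 9.96 and 9.87. Of 7 leukocyte markers, Cd68 lay above it on all arrays and Lyz2 on the AE17 sh Ctrl array.

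Nras had log2 intensities of 10.1 in sh Spp1 and 9.89 in sh Ctrl cells of LLC, 9.78 and 10.02 in those of AE17, and 10.23 and 10.26 in those of MC38. The transcript was well above background in every line, exceeding all but 1 of the sensory receptor probe sets on each array. Its 6 levels spanned 0.48 log2 units, and the line means of 10.25 in MC38, 9.99 in LLC and 9.90 in AE17 did not differ past the test.

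Nf1 had 10.52 in sh Spp1 and 10.43 in sh Ctrl cells of LLC, 10.11 and 10.30 in those of AE17, and 9.84 and 10.16 in those of MC38. It too exceeded all but 1 of the receptor probe sets on each array, so the transcript of the Ras GTPase-activating protein was present in every line. Both LLC arrays lay above all others, and the 6 levels spanned 0.68 log2 units.

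Cdkn2a had 5.88 in sh Spp1 and 5.88 in sh Ctrl cells of LLC, 6.59 and 6.57 in those of AE17, and 6.06 and 6.03 in those of MC38. Both arrays of AE17 lay above those of MC38, and these above those of LLC. All 6 levels were above the brightness floor and above the 95th percentile of the sensory receptors, but those of LLC and MC38 were under the 99th. On the LLC arrays 21 and 24 of the receptor probe sets were at least as bright, on the MC38 arrays 15 and 17, and on the AE17 arrays 5 and 9, each time with the sh Spp1 array first. Normalization keeps the order of probe sets within an array, so these counts hold for the deposited values as well.

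Cdkn2b had 6.17 in sh Spp1 and 6.17 in sh Ctrl cells of LLC, 7.89 and 6.72 in those of AE17, and 6.12 and 6.34 in those of MC38. The AE17 sh Spp1 array stood above the other 5, and the AE17 sh Ctrl array came next. The LLC sh Spp1 array was under the 99th percentile of the sensory receptors, and the other LLC and MC38 levels lay just above it. In LLC and MC38 10 to 15 receptor probe sets were at least as bright, against 2 on the AE17 sh Spp1 array and 9 on the AE17 sh Ctrl array.

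Cdkn2a and Cdkn2b in LLC and MC38 thus lay around the 99th percentile of the receptors, a low level at which part of the intensity may be background. The single Cdkn2a value also does not separate the INK4A from the ARF transcript.

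Nf2 had 8.67 in sh Spp1 and 8.74 in sh Ctrl cells of LLC, 8.53 and 8.11 in those of AE17, and 8.52 and 8.49 in those of MC38. It lay above the 99th percentile of the receptors on every array, including both arrays of the mesothelioma line. The LLC arrays were the highest and the AE17 sh Ctrl array the lowest.

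Bap1 had 9.48 in sh Spp1 and 9.04 in sh Ctrl cells of LLC, 10.04 and 9.46 in those of AE17, and 9.11 and 9.06 in those of MC38. All but 1 receptor probe set were dimmer on each array, and the 6 levels spanned 1.01 log2 units, with the AE17 sh Spp1 array the highest. Whole-transcript intensities do not read the coding sequence, so point mutations of these genes were not measured.

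**Figure D1:**
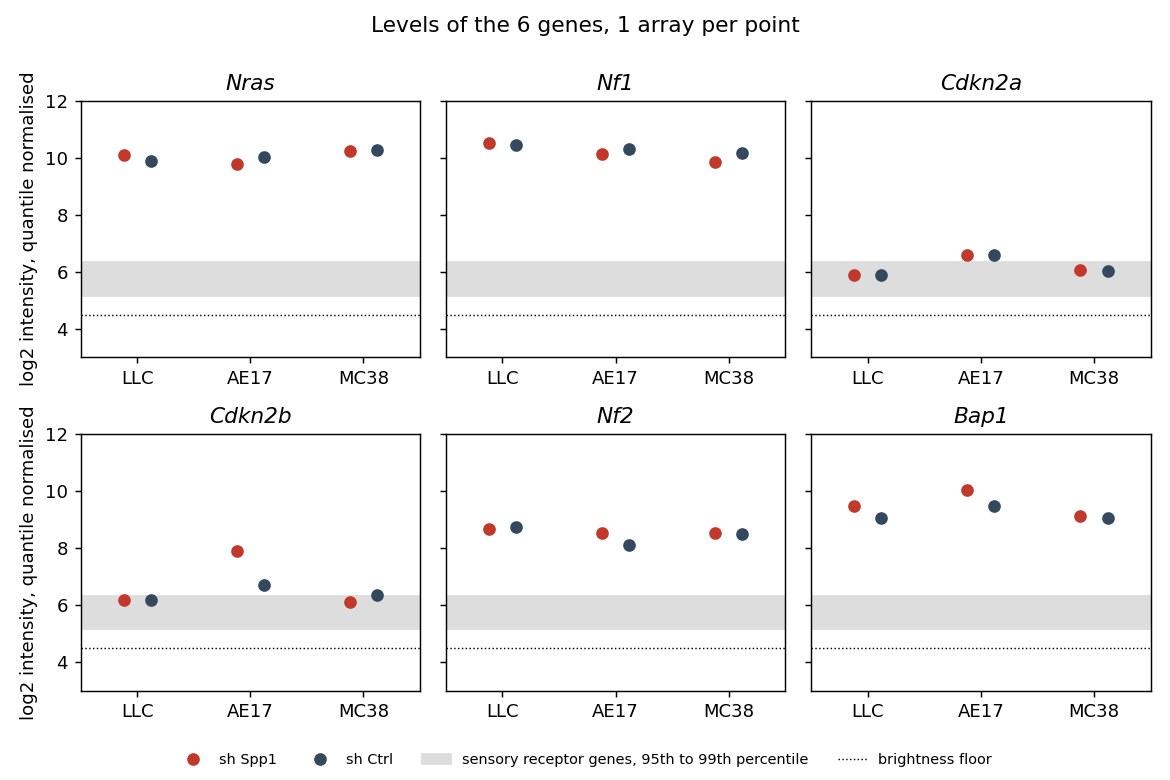
Log2 intensity of each gene (vertical axis) in LLC, AE17 and MC38 (horizontal axis), 1 array per point, with sh Spp1 in red left of sh Ctrl in dark blue; the grey band runs from the lowest 95th to the highest 99th percentile of the sensory receptor genes, and the dotted line is the brightness floor of 4.49. Nras, Nf1, Nf2 and Bap1 lie far above the band, and Cdkn2a and Cdkn2b lie in it in LLC and all but 1 array of MC38, and above it in AE17.

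Cells labelled sh Spp1 were then set against their sh Ctrl counterparts over the 3 lines. Bap1 was higher in sh Spp1 cells of each line, with log2 ratios of 0.44 for LLC, 0.59 for AE17 and 0.06 for MC38 and a mean of 0.36 ± 0.27 (SD, n = 3 lines). Cdkn2b had a ratio of 1.17 in AE17, 2.25-fold, against 0.00 in LLC and -0.22 in MC38, and its mean was 0.32 ± 0.74. On the same AE17 arrays some cell type markers had ratios of both signs and larger sizes. The highest were 2.76 for Pdpn, 2.76 for Gata6 and 1.40 for Cd68, and the lowest -4.61 for Krt8, -3.04 for Krt20 and -2.38 for Lyz2. The list medians in AE17 were smaller, at 0.49 for mesothelium, -0.32 for lung, -0.16 for intestinal and -0.21 for leukocyte markers. Bnc1, of the same list as Pdpn and Gata6, had -1.21. The summed log2 level on the AE17 sh Spp1 and sh Ctrl arrays was 59.1 and 52.9 for the mesothelium list, 64.4 and 72.0 for the lung list, 53.7 and 57.7 for the intestinal list and 35.3 and 36.8 for the leukocyte list, and the part of these in the Cdkn2b ratio was not tested. Cdkn2a had 0.00, 0.02 and 0.03 in LLC, AE17 and MC38.

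None of the 6 genes passed limma with the cell line as a block at an adjusted p under 0.05, where the share called among all 16797 genes was 0%. At an unadjusted p under 0.05 limma gave 6.05% of all genes and 0 of the 6. The limma estimate for Bap1 was 0.36, with a 95% interval from -0.14 to 0.87 and an adjusted p of 0.723. For Cdkn2b it was 0.32, with an interval from -0.53 to 1.17 and an adjusted p of 0.777 in limma. Without AE17 the estimates were 0.25 for Bap1, -0.11 for Cdkn2b, 0.09 for Nras, -0.12 for Nf1, 0.02 for Cdkn2a and -0.01 for Nf2. Lines are the replicates here, and no replicate cultures of a line were analysed here. The p-values and intervals set the mean ratio against its variation between lines, with a variance that limma draws toward that of all genes. They therefore do not measure a gene's own variation alone. For Cdkn2a the SD over the lines was 0.01, while its SE in limma was 0.16.

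The Ras axis had ratios of both signs. For Nras it was 0.21 in LLC cells, -0.23 in AE17 cells and -0.03 in MC38 cells, and for Nf1 0.08, -0.20 and -0.32. The intervals of the means ran from -0.50 to 0.46 for Nras and from -0.61 to 0.33 for Nf1. For Nras, differences larger than 1.37-fold up or 0.709-fold down lay outside its interval after quantile normalization. The intervals do not cover the choice of scaling. With arrays centred on their medians the estimates were 0.68 for Nras and 0.57 for Nf1, both outside these intervals.

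Nf2 had ratios of -0.06 for LLC, 0.42 for AE17 and 0.04 for MC38, with an interval of the mean from -0.36 to 0.62. The interval for Cdkn2a ran from -0.40 to 0.44. The ratios of Cdkn2a had an SD of 0.01 over the lines and those of Nf2 an SD of 0.25.

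Within a line, 1 of the 6 genes, Cdkn2b in AE17, had an absolute log2 ratio of at least 1, and that was 1 array against 1 array. Of all genes 18.6% did so in AE17, and 9.97% were higher by that much there. In LLC the share of all genes was 3.48%, with 1.72% higher, and in MC38 2.53%, with 0.872% higher, and 0 of the 6 genes reached it in either line. In AE17 the size of the Cdkn2b ratio was above that of 85.9% of genes. Ranked within its own line, the Bap1 ratio was above the ratios of 86.2% of genes in LLC, 81.3% in AE17 and 55.3% in MC38. Over the lines, 32.2% of all genes had the same sign in each line, and so did Bap1 and Cdkn2a. The Cdkn2a ratios were 0.00, 0.02 and 0.03 in LLC, AE17 and MC38, and as deposited -0.74, -0.10 and -0.06, so their sign depended on the scaling. In LLC and MC38 taken alone 55.3% of all genes shared a sign.

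**Figure D2:**
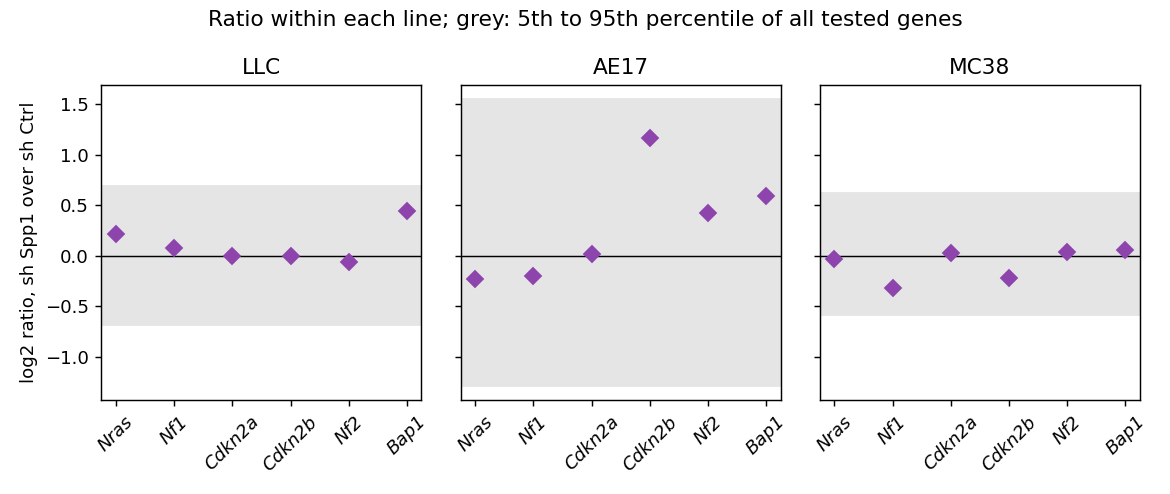
Log2 ratio of sh Spp1 over sh Ctrl (vertical axis) for each gene (horizontal axis) in LLC, AE17 and MC38, 1 array against 1 array per point; the grey band holds the 5th to 95th percentile of all tested genes. All points lie inside the band of their line, and the highest, 1.17, is Cdkn2b in AE17.

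The scaling bears on these ratios, because the deposited arrays differed in overall brightness and in the shape of their distributions. Centring on the median removes the first difference only, and in LLC it left 2693 genes higher and 139 lower by at least 1. In the deposited values the LLC pair had a median log2 ratio over all genes of -0.46, the AE17 pair -0.23 and the MC38 pair 0.08, where quantile normalization gave 0.03, -0.04 and 0.02. Cdkn2a then had -0.74 in LLC and Cdkn2b -0.70, or -0.27 and -0.24 relative to all genes. Cdkn2b kept a ratio of 1.19 in AE17. Bap1 had 0.50, 0.77 and 0.40 in LLC, AE17 and MC38 as deposited, and 0.96, 1.01 and 0.32 relative to all genes. Nras and Nf1 were also higher relative to all genes in LLC, by 0.82 and 0.73, and the sign of their mean ratio turned with the scaling. A rise of this kind in LLC was not particular to these genes. As deposited, the list medians there relative to all genes ran from 0.18 to 0.56 in the pathway and neighbour lists described below. In the marker lists they ran from -0.28 to -0.07. With each array centred on its median, Nras had 1.15, Nf1 1.06 and Bap1 1.29 in LLC, and Bap1 1.23 and Cdkn2b 1.64 in AE17. So 3 and 2 of the 6 genes reached 1 there, where 2693 and 3291 of all genes did. After quantile normalization 285 of 16561 genes had done so in LLC and 1667 of 16719 in AE17. That centring also put the median of all tested genes at 0.33 for LLC, 0.22 for AE17 and 0.26 for MC38. The limma estimate for Bap1 over the lines was then 1.03, with an adjusted p of 0.126.

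The second comparison set the lines against each other, with the shRNA as a term. Cdkn2a and Cdkn2b had higher intensities in AE17 than in LLC, by 0.70 ± 0.20 and 1.13 ± 0.40 log2 units (SE). The LLC levels lay around the 99th percentile of the sensory receptors, so these are differences in intensity and no fold of transcript is drawn from them. Both arrays of AE17 lay above both of LLC for each gene. Limma gave Cdkn2a a 95% interval from 0.18 to 1.22, an unadjusted p of 0.0182 and an adjusted p of 0.329. Cdkn2b had an interval from 0.09 to 2.17, an unadjusted p of 0.0383 and an adjusted p of 0.367 in limma, so neither passed.

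In MC38 these genes were lower than in AE17, with limma differences of -0.53 ± 0.20 for Cdkn2a and -1.07 ± 0.40 for Cdkn2b (SE) and adjusted p of 0.374 and 0.371. Bap1 was lower in MC38 by the same comparison, at -0.66 ± 0.23, with an adjusted p of 0.359 in limma. These differences depended on the scaling. As deposited, Cdkn2a had 0.01 for AE17 against LLC and 0.12 for MC38 against AE17, and Bap1 -0.15 for AE17 against LLC, where the quantile normalized estimate was 0.49. For MC38 against AE17 Bap1 had -0.11 as deposited. Cdkn2b kept its direction, at 0.50 and -0.48. Its estimate also rested on the AE17 sh Spp1 array: without that array AE17 against LLC was 0.50, and without the AE17 sh Ctrl array it was 1.77, with an adjusted p of 0.0212 in limma on a single residual degree of freedom. For MC38 against AE17 Cdkn2b had -0.44 without the AE17 sh Spp1 array, and without the AE17 sh Ctrl array -1.71, with an adjusted p of 0.0237 in limma.

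Between MC38 and LLC the limma differences were 0.26 for Nras, -0.48 for Nf1, 0.17 for Cdkn2a, 0.06 for Cdkn2b, -0.20 for Nf2 and -0.17 for Bap1. The lowest of their adjusted p values in limma was 0.516, for Nf1. The interval for Nf1 ran from -1.05 to 0.10. For AE17 against LLC, Nras had -0.09, Nf1 -0.27, Nf2 -0.39 and Bap1 0.49, with adjusted p from 0.446 to 0.881 in limma.

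No gene of the array passed an adjusted p under 0.05 in limma in these comparisons, a share of 0% in each. At an unadjusted p under 0.05 limma gave 11.5% of all genes for MC38 against LLC and 0 of the 6, 12.8% for AE17 against LLC and 2 of the 6, and 13.2% for MC38 against AE17 and 3 of the 6. The arrays of the lines did not overlap for 4 of the 6 genes in each comparison, against 49.1%, 41.6% and 43.4% of all genes. Since a line's arrays carry different shRNA labels, any response specific to a line enters the error of these contrasts.

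**Figure D3:**
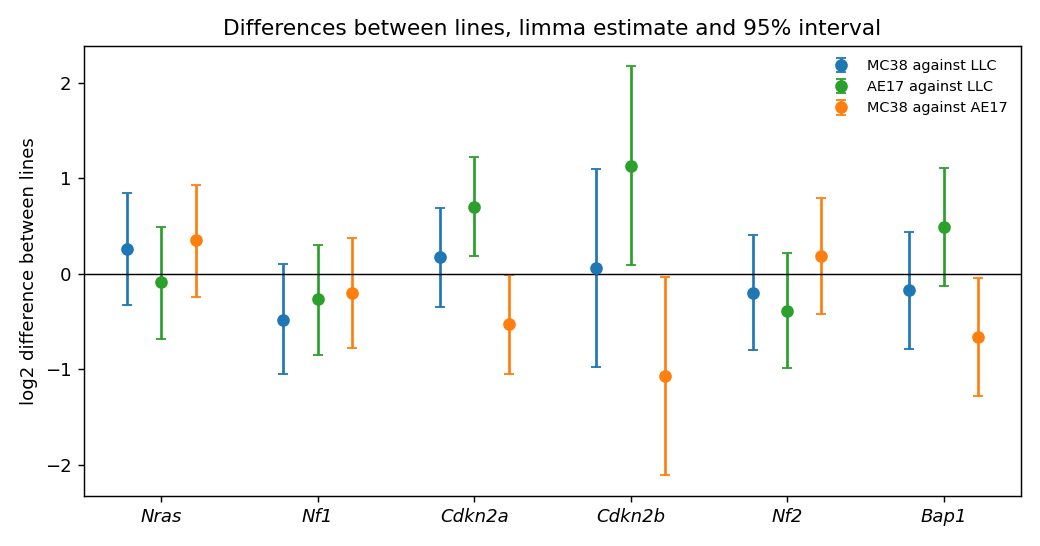
Difference in log2 intensity between lines (vertical axis) for each gene (horizontal axis), as the limma estimate with its 95% interval, for MC38 against LLC in blue, AE17 against LLC in green and MC38 against AE17 in orange. The AE17 against LLC intervals of Cdkn2a and Cdkn2b lie above 0 before adjustment over all genes, and no adjusted p was under 0.05.

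Mtap, which encodes an enzyme of methionine salvage and is often lost together with CDKN2A in human tumours, is the neighbour of Cdkn2a in GRCm38.p6. It had log2 intensities of 11.13 in sh Spp1 and 11.36 in sh Ctrl cells of LLC, 10.76 and 11.67 in those of AE17, and 12.40 and 12.38 in those of MC38, well above background throughout. Dmrta1, on the far side of Cdkn2b, lay under the floor on all arrays, between 3.41 and 4.30. Elavl2, a neuronal RNA-binding protein gene further along, had 5.41 to 5.79.

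Of the 7 genes listed for this neighbourhood 6 were tested and 0 passed limma over the shRNA or between lines. Their highest mean ratios of sh Spp1 over sh Ctrl were those of Hacd4 at 0.43 ± 1.51 and Focad at 0.12 ± 0.72 (SD, n = 3 lines), and the lowest those of Mllt3 at -0.56 ± 0.33 and Mtap at -0.37 ± 0.49. The list median was -0.03, against 0.00 for all genes.

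**Figure D4:**
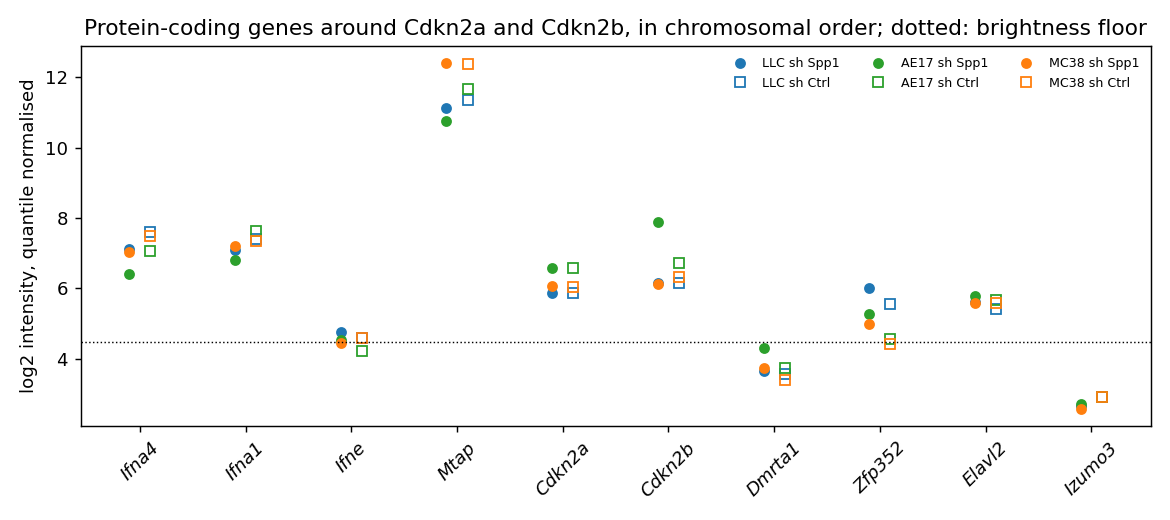
Log2 intensity (vertical axis) of Cdkn2a, Cdkn2b and the 4 protein-coding genes on either side in chromosomal order (horizontal axis), with filled circles for sh Spp1, open squares for sh Ctrl, and LLC in blue, AE17 in green and MC38 in orange; heights of different genes are not comparable. The AE17 points are the highest for Cdkn2a and Cdkn2b, and those of Mtap lie between 10.76 and 12.40.

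Genes of Ras signalling, from exchange factors to the kinases below Ras and the enzymes that attach its lipid, formed a list. Of 32 genes 28 were tested and 0 passed limma in any comparison, while 2 had an unadjusted p under 0.05 for the shRNA, where 6.05% of all genes did. The median mean ratio was -0.07, against 0.00 for all genes. The farnesyltransferase subunit Fntb had 0.66 ± 0.49 and the kinase Map2k2 0.63 ± 0.29, while Rasgrp3, an exchange factor, had -0.78 ± 0.98 and the Ras relative Rras2 -0.39 ± 0.46 (SD, n = 3 lines). In AE17 2 of the 28 had a ratio of at least 1 and 2 of at most -1, where 18.6% of all genes had an absolute ratio of at least 1, and in LLC and MC38 0 did, where 3.48% and 2.53% of all genes did.

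The p53 circuit had 20 of 21 genes tested, a median mean ratio of 0.00 and 0 genes past limma. The CDK inhibitor Cdkn1a had 0.82 ± 0.35 and the apoptosis gene Bbc3 0.62 ± 0.55, both direct targets of p53, and the damage kinases Atr and Atm had -0.81 ± 0.86 and -0.68 ± 0.71 (SD, n = 3 lines). Cdkn1a was higher in sh Spp1 cells of all 3 lines. For levels between lines, Mdm2 and Trp53inp1 were chosen after their values were seen. Mdm2, the ligase that ARF restrains, had 8.51 in sh Spp1 and 8.31 in sh Ctrl cells of MC38 and 8.47 and 8.60 in AE17, against 10.30 and 9.59 in LLC. The p53 target Trp53inp1 had 6.57 and 6.37 in MC38 and 8.07 and 8.36 in AE17, against 10.27 and 9.07 in LLC. LLC was thus the highest for both, and for MC38 against LLC limma gave adjusted p of 0.182 for Mdm2 and 0.102 for Trp53inp1.

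The axis from INK4 proteins to RB had 18 of 18 genes tested, 0 past limma, and a median mean ratio of -0.29, with -0.42 in AE17, 0.11 in LLC and -0.01 in MC38. The related inhibitor Cdkn2c had 0.52 ± 1.09 and the cyclin Ccnd3 0.50 ± 0.45, while the Polycomb gene Cbx7, whose product represses the INK4/ARF genes, had -1.01 ± 2.40 and the pocket protein gene Rbl2 -0.65 ± 0.31 (SD, n = 3 lines). Cbx7 owed its mean to AE17, where it had 5.50 in sh Spp1 and 9.25 in sh Ctrl cells. On the same arrays Cdkn2b had 7.89 and 6.72 and Cdkn2a 6.59 and 6.57, and a link of either to Cbx7 was not tested. These are 1 array against 1 array, in the line where 18.6% of all genes had an absolute ratio of at least 1. The cyclin gene Ccnd2, chosen after its values were seen, had 4.81 and 7.07 in MC38, against 11.57 and 11.05 in LLC and 11.22 and 10.57 in AE17. Limma gave that difference an adjusted p of 0.130 against LLC and 0.135 against AE17.

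The Hippo pathway, which merlin activates, had 25 of 26 genes tested and 0 past limma, with 3 under an unadjusted p of 0.05 for the shRNA, where 6.05% of all genes were. Its median mean ratio was 0.21, against 0.00 for all genes, and 7 genes were higher and 3 lower in sh Spp1 cells of every line, where 32.2% of all genes had the same sign in each. The YAP targets Ccn2 and Ccn1 had 0.96 ± 1.64 and 0.93 ± 1.24, and the Hippo adaptor Mob1a and the merlin relative Rdx had -0.68 ± 0.58 and -0.46 ± 0.37 (SD, n = 3 lines). Ccn2 owed its mean to AE17, with 2.86 there, against 0.05 in LLC and -0.02 in MC38, and Ccn1 had 1.95 in LLC, 1.30 in AE17 and -0.45 in MC38. Chosen after their values were seen, the YAP target Ankrd1 and the merlin partner Wwc1 set MC38 apart. Ankrd1 had 12.12 and 11.65 in MC38, against 9.36 and 8.90 in AE17 and 10.39 and 8.99 in LLC. Wwc1 had 5.83 and 5.94 in MC38, against 7.80 and 7.52 in AE17 and 8.17 and 7.65 in LLC. The adjusted p in limma for MC38 against AE17 was 0.0872 for Ankrd1 and 0.110 for Wwc1.

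Partners of BAP1 and genes of related ubiquitin ligases had 15 of 16 tested, 0 past limma and a median mean ratio of 0.08. Asxl3, a cofactor of the BAP1 complex, had 0.91 ± 1.48 and Hcfc1, which binds BAP1, 0.72 ± 0.68, while Brca1 had -0.67 ± 0.64 and Rnf2, a ligase for histone H2A, -0.64 ± 0.86 (SD, n = 3 lines). Asxl3 owed its mean to AE17, with 2.61 there, against 0.19 in LLC and -0.07 in MC38.

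**Figure D5:**
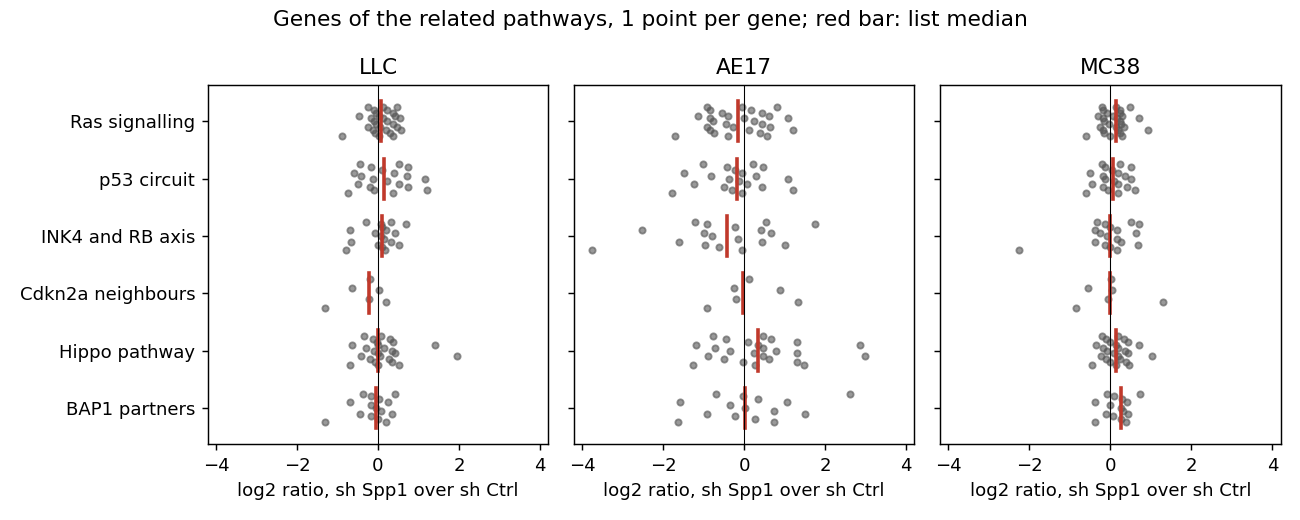
Log2 ratio of sh Spp1 over sh Ctrl (horizontal axis) for the tested genes of each list (rows) in LLC, AE17 and MC38, 1 point per gene, with the list median as a red bar; vertical scatter within a row only separates points. The AE17 points spread more widely than those of the other lines, and the medians lie between -0.42 and 0.35.

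The genes whose pattern over the 6 arrays was most like that of Cdkn2b, by Pearson correlation among genes spanning at least 1 log2 unit, were Perp at r = 0.997, Coro2b at 0.995 and Tmem40 at 0.995. Perp, a desmosomal p53 target, had 6.84 in sh Spp1 and 4.99 in sh Ctrl cells of AE17, and 4.27 to 4.52 on the other arrays, around the floor. For Bap1 they were Tbx1 at 0.990, Rnd1 at 0.988 and Smagp at 0.985. Such likeness was common, as 449 of 6781 genes had r above 0.9 with Cdkn2b and 206 with Bap1. The 6 arrays share lines and scaling, so these values are descriptions.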

How the data were processed

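On each of the 6 arrays the authors deposited a linear intensity for 41345 probe sets. RMA is named in the submitters' processing notes, GeneSpring GX 12.5 in the series' design. Array medians differed, so the deposited intensities were log2 transformed and quantile normalized with limma 3.58.1 in R 4.3.3. Probe sets were named from the platform annotation: 23521 had 1 symbol and 1814 several, and none with several was used. Probe sets whose mean reached the 30th percentile were tested, 17757 for 16797 genes, the brightest standing for its gene. All 6 genes passed this filter. One additive model of cell line and shRNA was fitted with lmFit and eBayes, with Benjamini-Hochberg adjustment at 0.05 over all genes. The line is the pair, because both of its arrays come from the same cell line. The fit was tested on simulated data. The genes and lists were chosen with earlier results of these data known. Named list genes are those past the test, or else the 2 highest and 2 lowest mean ratios; others are marked in the text. Alternatives covered the scaling, the brightness filter, averaged probe sets, the variance prior, the block and each line or array left out. Promoter sequences come from RefSeq, which held all 3 start sites of Cdkn2a and Cdkn2b. Figures used matplotlib 3.10.9 in Python 3.11.15. The number of arrays limits the precision.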

Additional observations from a re-analysis of the deposited data

Results flagged for a closer look

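Ratios of sh Spp1 over sh Ctrl had opposite signs in different lines for 4 of the 6 genes. Of all genes only 32.2% had the same sign in each line, so mixed signs were common and not particular to these genes. Each line has 1 array per label, so these differences between lines were not tested. The gap was 1.39 log2 units for Cdkn2b, between 1.17 in AE17 and -0.22 in MC38. It was 0.48 for Nf2 between AE17 and LLC, 0.44 for Nras between LLC and AE17, and 0.40 for Nf1 between LLC and MC38. AE17 is 1 of the lines in 3 of the 4, and its arrays correlated least with each other, at r = 0.939; the part this plays in the gaps was not tested.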

How the results depend on the processing

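Of 294 values of the tested differences under alternatives, 275 kept their sign and side of the threshold and 17 turned sign. The other 2 passed the threshold, both for Cdkn2b without the AE17 sh Ctrl array, at 1.77 for AE17 against LLC and -1.71 for MC38 against AE17, with adjusted p of 0.0212 and 0.0237 in limma. There AE17 has a single array, which is assumed to vary like the others. Many of the 294 values could not turn sign. Each gene has 1 probe set, so the filter, averaged probe sets and the variance prior leave its estimate as it was. The design is balanced, so fits without the block or the shRNA term do the same. Leaving out an array of the line outside a contrast also keeps the estimate. For the shRNA, 0 genes passed under every alternative, the fit with no replicate block included. Between lines the number of genes passed depended on the setting, and the cause was not tested. For MC38 against LLC, AE17 against LLC and MC38 against AE17 it was 225, 103 and 287 in the values as deposited and 89, 9 and 100 without the shRNA term. MC38 against LLC gave 44 genes without the brightness filter, 42 with the filter at the 50th percentile and 42 with an intensity trend in the variance prior. With these, MC38 against AE17 gave 27 at the 50th percentile and AE17 against LLC 1 with the trend. Leaving out 1 array at a time gave 0 to 1032, 0 to 1443 and 0 to 1157 genes in the same order of comparisons. The AE17 arrays set this range: MC38 against LLC gave 1032 with either of them left out, AE17 against LLC 511 without the sh Spp1 array and 1443 without the sh Ctrl array, and MC38 against AE17 1092 and 1157, while leaving out any LLC or MC38 array gave 0.

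Signs turned as follows. As deposited, the shRNA difference was 0.21 for Nras, 0.10 for Nf1 and -0.30 for Cdkn2a, and with arrays centred on their medians 0.68 for Nras and 0.57 for Nf1. As deposited, Bap1 had -0.15 for AE17 against LLC, and Nf1 0.31 and Cdkn2a 0.12 for MC38 against AE17. With 1 line left out, the shRNA difference ran from -0.13 to 0.09 for Nras, from -0.11 to 0.58 for Cdkn2b and from -0.01 to 0.23 for Nf2, the turned sign being without AE17 for all 3 genes. With 1 array left out, MC38 against LLC ran from -0.34 to 0.46 for Cdkn2b and from -0.40 to 0.05 for Bap1, AE17 against LLC from -0.26 to 0.08 for Nras, and MC38 against AE17 from -0.03 to 0.40 for Nf2.

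Of 36 ratios of the 6 genes within a line under the other 2 scalings, 22 moved by more than the SD over the lines. Genes with an absolute ratio of at least 1 within a line numbered 2649 in LLC and 634 in MC38 as deposited, and 2832 and 1040 with centred arrays. The split between higher and lower in LLC was 285 and 291, against 133 and 2516 as deposited and 2693 and 139 with centred arrays. In AE17 it was 1667 and 1450, against 1655 and 1952 and 3291 and 742, and in MC38 144 and 274, against 377 and 257 and 851 and 189. Without AE17, an alternative chosen after seeing the data, genes with the same sign in LLC and MC38 numbered 15 of 28 for Ras signalling, 10 of 20 for the p53 circuit, 13 of 18 for the INK4 and RB axis, 11 of 25 for the Hippo pathway, 9 of 15 for partners of BAP1 and 3 of 6 for neighbours of Cdkn2a, where 55.3% of all genes did.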
